A study of Mus musculus with 6 samples.

Results

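Endocrine cells of the gut package their hormones in dense core granules, and this report describes 9 genes that build those granules or process the prohormones inside them: Chga, Chgb, Scg2, Scg3, Scg5, Pcsk1, Pcsk1n, Cpe and Vgf. They were picked by gene symbol out of the 17526 genes of the count table; all 9 were present, and all 9 were among the 12943 genes that passed a filter on low counts and were tested. The table comes from mRNA sequencing of crypts from the small intestine, where stem cells, dividing progenitors and newly made secretory cells lie. There were 3 floxed control libraries, from mice with a floxed allele (Fpr2f/f) whose genotype field reads WT, and 3 knockout libraries (Fpr2VKO), labelled as a knockout of Fpr2 in the intestinal epithelium. The product of Fpr2 senses formylated peptides, and the study asked how its loss bears on stem cell proliferation and differentiation. The sources used here do not give the Cre line that removed it or the strain, age and sex of the mice. Genes of the formyl peptide receptor family were not analysed here, so the genotypes were not checked on the targeted gene.

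Total estimated counts ran from 11108511 to 16695304 in the controls and from 16542933 to 16859902 in the knockouts. Nothing in the labels ties each library to its own animal. The p-values therefore reflect spread between libraries that may be technical. Floxed controls 1 and 3 stood apart from the other 4 libraries on lymphocyte transcripts, with summed T cell markers of 297.5 and 242.6 CPM against 68.4 to 88.4 CPM elsewhere. Levels are in CPM, library-size normalised counts, scaled between libraries by TMM (trimmed mean of M-values). The same 2 libraries were high for most of the 9 genes, and the results are therefore given with and without them.

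The granins, the acidic proteins encoded by Chga, Chgb, Scg2 and Scg3, condense with hormone precursors in the trans-Golgi network and help the granule to form. Inside it, the convertase encoded by Pcsk1 cuts precursors after pairs of basic residues, and carboxypeptidase E, from Cpe, trims the basic residues left behind. Pcsk1n encodes proSAAS, an inhibitor of the Pcsk1 product, Scg5 encodes a chaperone of the related convertase from Pcsk2, and Vgf encodes a granin-like precursor of secreted peptides. In the crypt these transcripts belong mainly to enteroendocrine cells, and enteric neurons make them too. In bulk RNA of this kind, fewer endocrine cells and less RNA per cell cannot be told apart.

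Several of these genes are known for a cAMP response element next to the transcription start, so their promoters were searched for it. RefSeq promoter sequences (GRCm38.p6) were found for 7 of the 9 genes, Cpe and Vgf being without one in the table used, and the 250 bases before the transcript start used in that table were read on both strands. The full element, TGACGTCA, lay in the windows of 3 genes, Chgb, Scg2 and Pcsk1, and the variant TGACGTAA in that of Chga. In all 32851 promoters of the same length the full element occurred in 1.55% and the variant in 0.447%. The 4 matches are given with 11 bases on each side, 5′ to 3′ on the strand of the gene, with the element in capitals.
Chga: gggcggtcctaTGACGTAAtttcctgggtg
Chgb: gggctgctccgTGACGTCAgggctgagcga
Scg2: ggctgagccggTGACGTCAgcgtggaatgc
Pcsk1: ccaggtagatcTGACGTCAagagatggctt
The stretches lie at chr12:102554886-102554915 (plus strand) for Chga and chr2:132781559-132781588 (plus) for Chgb. Those of Scg2 and Pcsk1 lie at chr1:79440076-79440105 (minus) and chr13:75089768-75089797 (plus). Counted back from the transcript start used in the table, the elements begin 44 bases before it in Chga, 72 in Chgb, 68 in Scg2 and 78 in Pcsk1. For Chga, Chgb and Scg2 that start is also the outer end of the RefSeq gene. For Pcsk1 it is an inner start at 75089857, and the element begins 359 bases after the outer start of the gene at 75089420, so that it lies inside the annotated gene. The GENCODE M21 annotation starts its longest matching transcript of Chgb 364 bases and that of Scg2 94 bases further upstream, so by that annotation both elements fall in transcribed sequence. For Pcsk1 the 1 matching GENCODE transcript starts 31 bases further upstream than the inner start, so the element lies before the start of that transcript. No GENCODE transcript of Chga matched the end of its window, so its start was not checked in this way. Neither form was found in the windows of Scg3, Scg5 and Pcsk1n. Of the E-boxes, which basic helix-loop-helix factors bind, CAGATG was in none of the 7 windows, against 14.4% of all promoters. CACGTG was in none, against 6.02%, and CAGCTG was in Chga only, against 13.0%. TATAAA was in none of the 7, against 12.4% of all promoters. The GC box GGGCGG was in 4 of them (Chga, Chgb, Scg5 and Pcsk1n), against 32.7% of all promoters. With only 7 windows, the absence of a motif at such shares does not set these genes apart. A match is a description of these letters and not evidence that a factor binds there.

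All 9 genes were lower in knockout than in floxed control crypts, with log2 fold changes from -1.17 for Pcsk1n to -0.71 for Pcsk1 and a median of -0.84. The median over all tested genes was -0.013, and 51.9% of them had a negative value. By edgeR's quasi-likelihood test with Benjamini-Hochberg adjustment over all genes, 0 of the 9 passed at 0.05, where 0.0155% of all tested genes did. Adjusted p-values ran from 0.14 for Chga to 0.512 for Vgf. At an unadjusted p under 0.05, 8 of the 9 were lower, all except Vgf, against 9.63% of all tested genes. DESeq2 called Chga alone (adjusted p = 0.0122, the lowest over its alternatives, of which the highest was 0.807), where it called 2.4% of the genes it tested as lower. Markers of other crypt and immune cell types were also lower at an unadjusted p under 0.05, with 7 of 8 tested tuft cell markers (median log2 fold change -1.05), 7 of 9 for goblet cells (-0.73), 7 of 8 for Paneth cells (-1.56), 10 of 11 for T cells (-1.37) and 5 of 5 for B cells (-2.02). Other lists moved less or the other way. Of 10 proliferation genes, 5 were higher at that p, against 4.09% of all tested genes, and 0 were lower (median 0.45). Among enterocyte markers 1 of 10 was lower (-0.21), among stem cell markers 3 of 8 (-0.31) and among myeloid markers 1 of 5 (-0.015). The part of these cell types in the values of the 9 genes was not tested.

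Chga (gene 12652; chromosome 12, 102554941 to 102565027, 8 exons) encodes chromogranin A, the classical marker of endocrine granules. In floxed controls 1, 2 and 3 it measured 230.5, 149 and 247 CPM, and in knockouts 1, 2 and 3 it measured 112, 91.0 and 134 CPM. Every knockout lay below every control, although floxed control 2 was nearer to knockout 3 than to the other controls. The group means were 209 ± 52.3 and 112.5 ± 21.6 CPM (SD, n = 3 each), a log2 fold change of -0.89 ± 0.22 (SE; adjusted p = 0.14 by edgeR). Without floxed controls 1 and 3 it was -0.35 ± 0.22, an estimate that rests on 1 control library.

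Chgb (gene 12653; chromosome 2, 132781642 to 132795079), for chromogranin B, was the most abundant of the 9 in CPM and overlapped between the groups. The controls stood at 336, 192 and 306 CPM and the knockouts at 153, 143 and 204 CPM, so that knockout 3 was above floxed control 2. Its log2 fold change was -0.74 ± 0.23 (adjusted p = 0.208 by edgeR) and shrank to -0.14 ± 0.23 without floxed controls 1 and 3. Per kilobase of its longest coding transcript, Chgb stood at 101 ± 27.7 CPM in the controls and Chga at 111 ± 27.8 CPM, a difference smaller than their spread. In the knockouts these levels per kilobase were 60.8 ± 12.0 CPM for Chgb and 59.7 ± 11.5 CPM for Chga.

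Scg2 (gene 20254; chromosome 1, 79434366 to 79440026), for secretogranin II, gave 7.60, 5.31 and 7.88 CPM in the controls and 3.67, 3.595 and 4.42 CPM in the knockouts. Scg3 (gene 20255; chromosome 9, 75643366 to 75685959) encodes secretogranin III, which tethers chromogranin A to the granule membrane, and gave 3.58, 2.10 and 3.64 CPM against 1.75, 1.61 and 1.79 CPM. In both genes the knockouts lay close together and below the controls, and floxed control 2 was the lowest control. The log2 fold changes were -0.82 ± 0.26 for Scg2 and -0.84 ± 0.33 for Scg3. With floxed control 2 as the only control they shrank to -0.39 ± 0.35 for Scg2 and -0.23 ± 0.44 for Scg3. The deposited counts behind Scg3 were only 30 to 41 reads a library, which limits its precision.

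**Figure D1:**
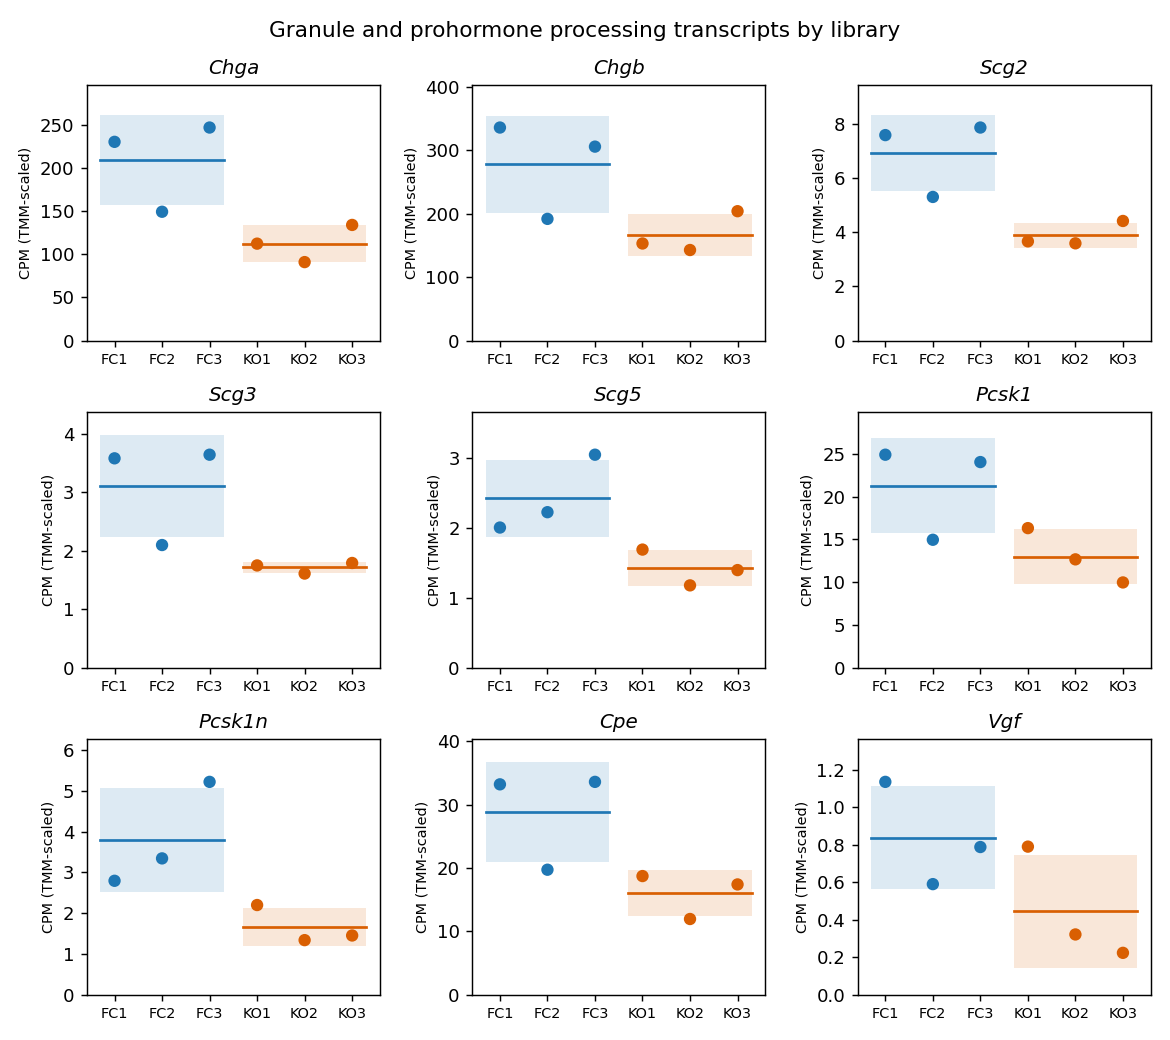
TMM-scaled CPM of each of the 9 genes in floxed controls (FC1 to FC3, blue) and knockouts (KO1 to KO3, orange); points are libraries, lines are group means and shaded bands are ±1 SD, and each axis starts at 0. Floxed controls 1 and 3 are high for the 4 granins, Pcsk1 and Cpe, whereas floxed control 3 alone is high for Scg5 and Pcsk1n.

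Of the processing enzymes, Pcsk1 (gene 18548; chromosome 13, 75089420 to 75134861, 14 exons) stood at 24.9, 14.95 and 24.0 CPM in the controls and at 16.3, 12.7 and 9.96 CPM in the knockouts. Knockout 1 lay above floxed control 2, and the log2 fold change of -0.71 ± 0.25 (unadjusted p = 0.0159, adjusted p = 0.242, edgeR) was the smallest of the 9. Cpe (gene 12876; chromosome 8, 64592542 to 64693109) gave 33.2, 19.7 and 33.6 CPM against 18.7, 12.0 and 17.4 CPM. Its groups did not overlap, although floxed control 2 and knockout 1 were separated by only 1 CPM, and its log2 fold change was -0.84 ± 0.25 (adjusted p = 0.188 by edgeR). Without floxed controls 1 and 3 the log2 fold changes were -0.14 ± 0.28 for Pcsk1 and -0.24 ± 0.26 for Cpe.

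The genes of the convertase-binding proteins had another order of libraries. Pcsk1n (gene 30052; chromosome X, 7919822 to 7924410) stood at 2.795, 3.34 and 5.22 CPM in the controls and at 2.20, 1.34 and 1.455 CPM in the knockouts. Scg5 (gene 20394; chromosome 2, 113776313 to 113829091) stood at 2.01, 2.23 and 3.05 CPM against 1.69, 1.18 and 1.40 CPM. In both, floxed control 3 was highest, floxed control 1 was the lowest control, and every knockout lay below every control. Counts were low, at 22 to 34 reads a library for Scg5 and 25 to 53 for Pcsk1n. The order of floxed controls 1 and 2 thus rests on few reads (23 and 34 for Scg5, 32 and 51 for Pcsk1n). The log2 fold changes were -1.17 ± 0.36 for Pcsk1n (adjusted p = 0.193 by edgeR) and -0.76 ± 0.34 for Scg5 (adjusted p = 0.357). Without floxed controls 1 and 3 they were -0.94 ± 0.43 (unadjusted p = 0.0447) and -0.58 ± 0.46 (unadjusted p = 0.22) by edgeR, and Pcsk1n was then the only one of the 9 with an unadjusted p under 0.05. Pcsk1n overlaps the gene Eras on the opposite strand, and since the strand use of the counting is not stated, reads of that overlap cannot be assigned with certainty.

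Vgf (gene 381677; chromosome 5, 137025301 to 137033351) was near the limit of detection, with 4 to 14 reads a library. It gave 1.135, 0.590 and 0.788 CPM in the controls and 0.790, 0.322 and 0.224 CPM in the knockouts. The groups overlapped, and the log2 fold change was -0.89 ± 0.55 (unadjusted p = 0.134 by edgeR). It was -1.57 ± 0.59 without knockout 1 (unadjusted p = 0.0269 by edgeR) and -0.35 ± 0.81 without floxed controls 1 and 3. Altogether 6 of the 9 genes, Chga, Scg2, Scg3, Scg5, Pcsk1n and Cpe, had knockouts that lay wholly below the controls, against 10.3% of all tested genes.

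Those separations depend in part on the scaling between libraries. TMM factors were 1.03, 0.914 and 0.842 for the controls, in replicate order, and 1.05, 1.13 and 1.06 for the knockouts. Scaling thus raised floxed controls 2 and 3 relative to the knockouts. With scaling by total count only, a setting added after the values were seen, 4 of the 9 (Scg2, Scg3, Scg5 and Pcsk1n) had groups that did not overlap, against 4% of all tested genes. Chga then stood at 136.5 CPM in floxed control 2 and at 142.5 CPM in knockout 3. The median log2 fold change of the 9 was -0.63 on that scale, where the median of all tested genes was 0.205. On it, 4 of the 9 were lower at an unadjusted p under 0.05, against 4.58% of all tested genes.

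Ratios between transcripts within a library do not depend on the scaling. Chgb over Chga, in CPM, was 1.46, 1.28 and 1.24 in the controls and 1.36, 1.57 and 1.52 in the knockouts, and the groups overlapped. Together the pair took 87.8% ± 0.387 of the CPM of the 9 genes in the controls and 87.8% ± 2.38 in the knockouts (SD, n = 3). Pcsk1 as a share of Chga was 10.8%, 10.0% and 9.72% in the controls and 14.5%, 13.9% and 7.43% in the knockouts, with the highest and the lowest value both among the knockouts. The summed CPM of the 9 genes was 1.24 ± 0.337 times that of the hormone genes in the controls and 1.24 ± 0.126 times in the knockouts. Against the summed endocrine transcription factors it was 6.53 ± 0.176 and 6.33 ± 1.04 times. The granule transcripts were thus lower to about the degree that the hormone and transcription factor sums were, within the spread of the libraries.

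Over the 6 libraries the 9 genes varied together to different degrees, given here as a description, since all share the same libraries and the group difference enters every value. Pearson's r of log2 CPM over the 36 pairs ran from 0.567 (Chgb with Vgf) to 0.994 (Scg5 with Pcsk1n), with a median of 0.813. Chga, Chgb, Scg2, Scg3 and Cpe formed one block, in which every r was at least 0.932. Scg5 and Pcsk1n, both of low counts, were nearest to each other. Scg5 also had an r of 0.842 with Chga and 0.845 with Cpe, and 0.70 with Chgb. Pcsk1 was nearest to Vgf (r = 0.927), the gene of lowest counts.

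**Figure D2:**
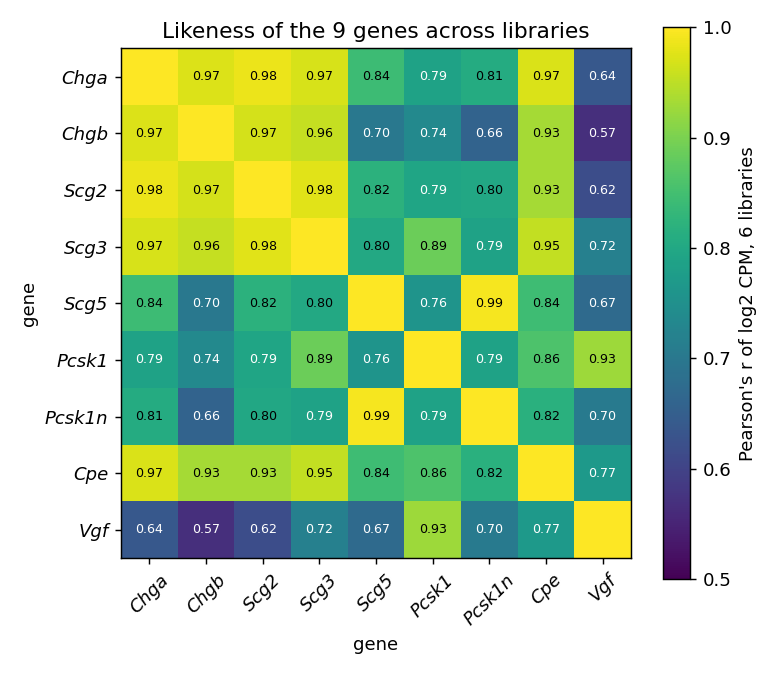
Pearson's r of log2 CPM over the 6 libraries for each pair of the 9 genes; both axes list the genes and the colour scale runs from 0.5 to 1. The 4 granins and Cpe form a block at 0.93 or above, and Scg5 with Pcsk1n stands at 0.994.

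Among other genes with an average log2 CPM of at least 3, those close to the mean standardised profile of the 9 included Maged2 (r = 0.996), Klf15 (0.993), Plcb2 (0.993) and Limd2 (0.991), each over 6 libraries. Of 9673 genes compared, 123 (1.27%) had an r of at least 0.95, so the order among them rests on small differences. The log2 fold changes of the named genes were -0.95 ± 0.25, -1.50 ± 0.28, -1.08 ± 0.27 and -1.08 ± 0.27 in the same order. Plcb2 is also one of the tuft cell markers counted above, so likeness of profile does not mark a gene as endocrine.

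The other genes of the route covered a wider range of fold changes. Of 18 tested genes of the granule membrane and granule assembly, 6 were lower at an unadjusted p under 0.05, against 9.63% of all tested genes, and 0 were higher, against 4.09%. None passed over all genes in the main edgeR fit (all libraries, no replicate block), and its median log2 fold change over the 18 was -0.14. Ptprn2, a tyrosine phosphatase-like protein of the granule membrane, stood at 97.8, 60.4 and 107 CPM in the controls and at 46.1, 28.1 and 22.1 CPM in the knockouts. Hid1, needed for sorting into granules at the trans-Golgi network, stood at 121, 87.9 and 121 CPM against 67.3, 49.0 and 41.2 CPM. Both had wholly separated groups and log2 fold changes of -1.46 ± 0.29 and -1.06 ± 0.21, each with adjusted p = 0.0952 by edgeR, and with Slc18a1 they were the 3 that DESeq2 called. By edgeR, Ptprn2 had adjusted p = 0.0309 with a replicate block, 0.0469 with no filter beyond 1 count and 0.0119 without floxed control 2. Hid1 had adjusted p = 0.0579, 0.037 and 0.0138 by edgeR in the same settings, and when floxed control 3 was left out both stood at 0.696. Slc18a1, the vesicular monoamine transporter of enterochromaffin cells, had -1.02 ± 0.25, the granule protein gene Resp18 -1.14 ± 0.33, and Ptprn, the closest relative of Ptprn2, -0.76 ± 0.32. Without floxed controls 1 and 3, which leaves 1 control library, the median of the 18 was -0.074. Hid1 then had -0.68 ± 0.25 and Resp18 -1.01 ± 0.40.

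Regulated exocytosis is the machinery that docks granules and fuses them with the plasma membrane. Of its 25 tested genes, 14 were lower at an unadjusted p under 0.05, against 9.63% of all tested genes. At that p 0 were higher, against 4.09%, and the median log2 fold change was -0.80. Rab3d, a GTPase of secretory granules, stood at 176, 158 and 256 CPM in the controls and at 118, 78.9 and 62.9 CPM in the knockouts (log2 fold change -1.18 ± 0.26, adjusted p = 0.119 by edgeR). Scgn (secretagogin, a calcium sensor), Cplx1 (a complexin) and Syt7 (a synaptotagmin) had -1.11 ± 0.27, -1.87 ± 0.47 and -0.96 ± 0.24. None of the 25 passed over all genes by edgeR, and DESeq2 called 3 (Rab3d, Scgn and Syt7). Without floxed controls 1 and 3, which leaves 1 control library, the median was -0.074. Rab3d is also expressed in other granulated cells, and the summed Paneth cell markers of these libraries were 40280 to 81170 CPM in the controls and 13040 to 22790 CPM in the knockouts. Their part in the exocytosis values was not tested.

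Other processing and peptide-modifying enzymes showed less. Of 11 tested, 2 were lower at an unadjusted p under 0.05, against 9.63% of all tested genes, and none was higher, against 4.09%. The median was -0.21, and edgeR and DESeq2 called 0 over all genes. The 2 lower genes were Qpctl, a Golgi glutaminyl cyclase (-0.61 ± 0.20), and Ctsl, the lysosomal protease cathepsin L (-0.56 ± 0.21). Pam, the enzyme that amidates peptide C-termini, stood at 14.9, 9.90 and 13.4 CPM against 9.65, 11.75 and 11.25 CPM, with overlapping groups and -0.22 ± 0.21. The broadly expressed proteases Pcsk5 and Cpd had 0.32 ± 0.16 and -0.42 ± 0.24. Pcsk2 was not among the genes of the count table.

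**Figure D3:**
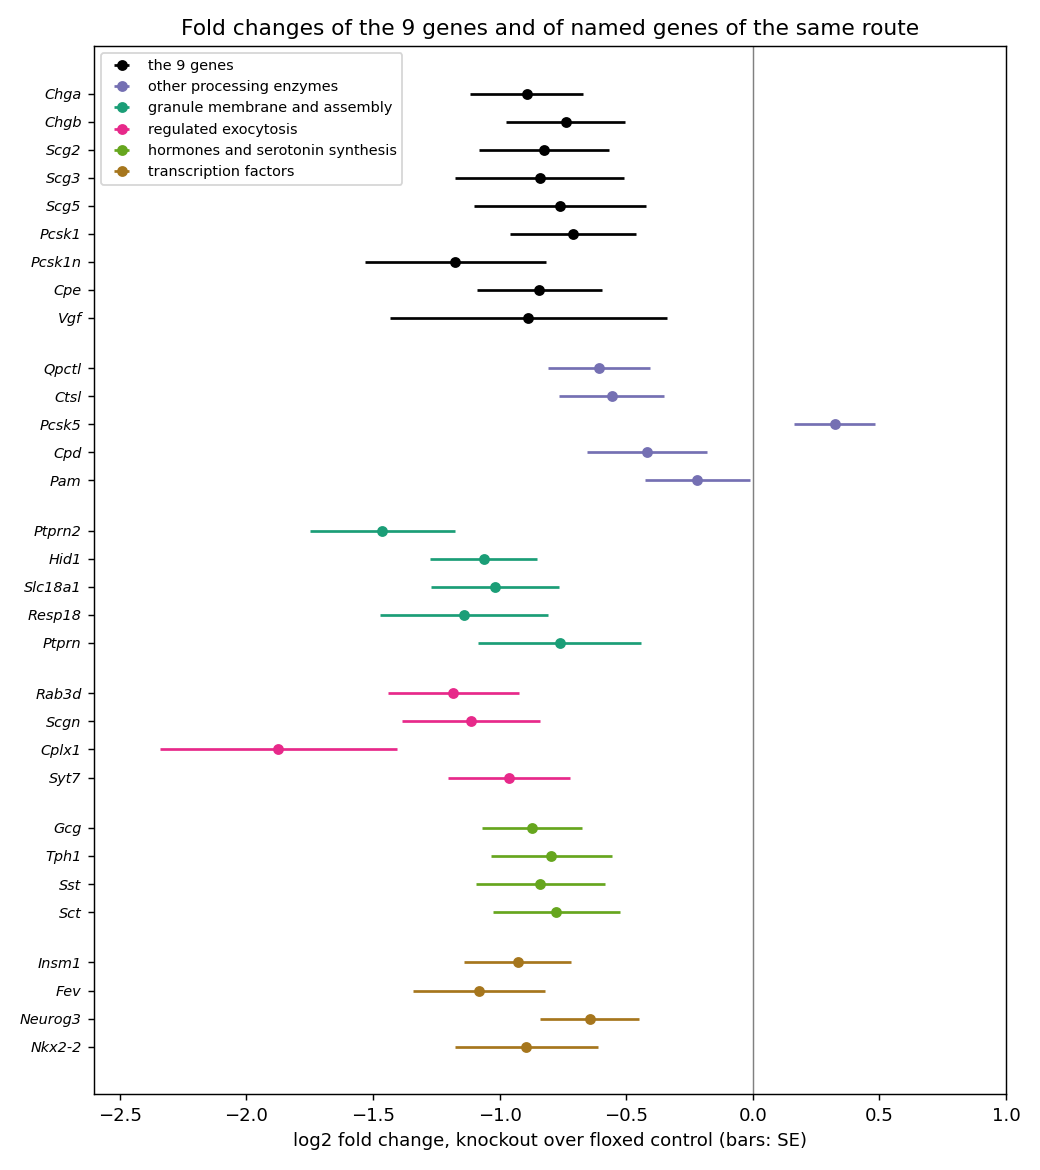
Log2 fold change, knockout over floxed control, of the 9 genes (black) and of the named genes of 5 related lists (colours); points are edgeR estimates and bars are SE. All 9 lie between -1.17 and -0.71, Ptprn2 and Cplx1 lie further left, and Pcsk5 lies right of 0.

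Hormone genes and endocrine transcription factors gave values like those of the 9. All 11 tested hormone and serotonin synthesis genes were negative, against 51.9% of all tested genes, with a median of -0.78. At an unadjusted p under 0.05, 8 of them were lower, against 9.63% of all tested genes. None passed over all genes by edgeR and 1, Gcg, by DESeq2. Gcg, for the glucagon-like peptides, had -0.87 ± 0.20, Tph1, for serotonin synthesis, -0.80 ± 0.24, Sst, for somatostatin, -0.84 ± 0.26 and Sct, for secretin, -0.78 ± 0.25. All 14 transcription factor genes were negative, 7 at an unadjusted p under 0.05, against the same 9.63%, with a median of -0.65. Over all genes, edgeR called none of the 14 and DESeq2 called 2 (Insm1 and Fev). The 4 of smallest p were Insm1 (-0.93 ± 0.21), Fev (-1.08 ± 0.26), Neurog3 (-0.64 ± 0.20) and Nkx2-2 (-0.89 ± 0.28). Neurog3, which starts endocrine differentiation, stood at 9.43, 9.11 and 9.06 CPM in the controls and at 6.04, 5.69 and 5.93 CPM in the knockouts, with less spread between libraries of a group than in any of the 9. Without floxed controls 1 and 3 the medians were -0.48 for hormones and -0.15 for transcription factors.

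By library, the mean log2 CPM of the 9 genes, centred on the 6 libraries, was 0.54, 0.03 and 0.65 in the controls and -0.20, -0.61 and -0.42 in the knockouts, in replicate order. The hormone genes had 0.13, 0.20 and 0.73 against -0.24, -0.66 and -0.16. The T cell markers had 1.33, -0.67 and 1.01 against -0.67, -0.55 and -0.44. Floxed control 2 thus lay with the knockouts for T cell markers, whereas for the 9 genes and the hormones it lay above each knockout. For the 9 genes it was still nearer to knockout 1 than to the other controls. The transcription factors had -0.15 in floxed control 2, above the -0.35 to -0.31 of the knockouts. The exocytosis genes had -0.11 in both floxed control 2 and knockout 1, and the tuft cell markers -0.19 and -0.18.

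**Figure D4:**
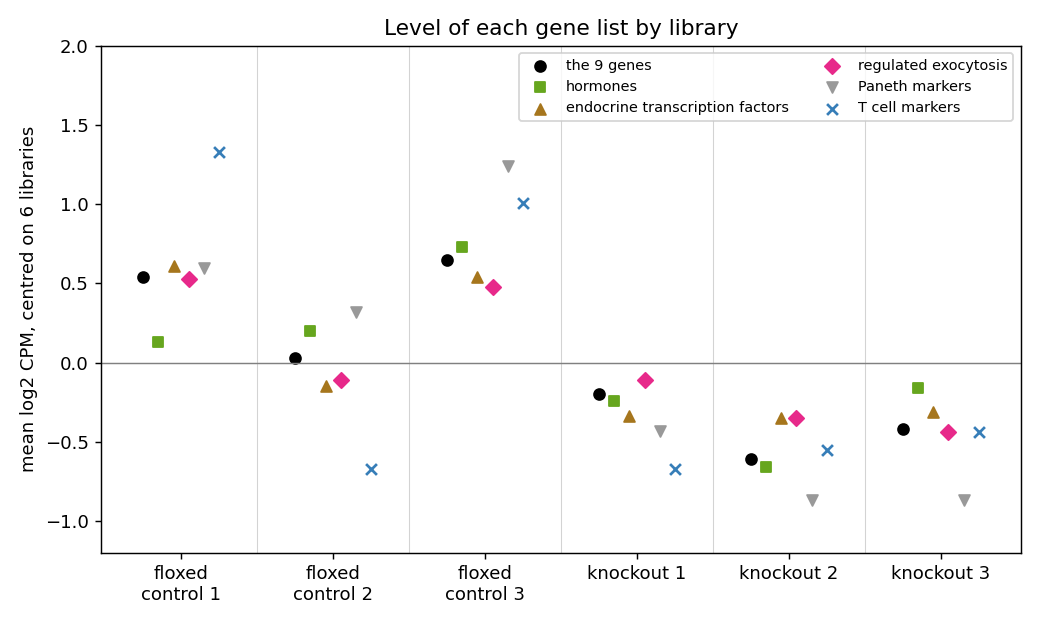
Mean log2 CPM of each gene list in each library, centred on the 6 libraries; each symbol is 1 list. The 9 genes stand at 0.03 in floxed control 2 and between -0.61 and -0.20 in the knockouts, whereas T cell markers stand at -0.67 in floxed control 2 and between -0.67 and -0.44 in the knockouts.

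Enteric neurons also express the 9 genes, and their markers were low in these libraries. Of 14 neuronal markers in the table, 10 were under 1 CPM in every library, and 4 were high enough to test. Of the 14, 8 were listed at 0 in some library. Prph was at 0 in 4 of 6 libraries and reached at most 0.107 CPM, and Elavl4 reached at most 0.886 CPM. Among those tested, Tubb3 stood at 0.616 to 2.17 CPM, Nefm at 0.790 to 2.01 CPM and Chat at 0.590 to 1.05 CPM over the 6 libraries. The summed level was 11.5 to 19.2 CPM in the controls and 7.08 to 9.76 CPM in the knockouts, most of it from Ret, at 10.4, 7.54 and 12.2 CPM against 6.43, 3.54 and 4.37 CPM. Glial markers summed to 1.87 to 2.16 CPM in the controls and 2.60 to 3.58 CPM in the knockouts. The 9 genes summed to 389 to 641 CPM in the controls and 266 to 375 CPM in the knockouts. Marker levels do not show how much RNA of the 9 genes a neuron holds. The part of neurons and glia in the values of the 9 genes was not tested.

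All 9 genes remained lower in the knockouts whichever library was left out, but the size of the difference depended on which one. Without floxed control 2 the median of the 9 was -1.05 and 5 passed over all genes by edgeR (Chga, Chgb, Scg2, Pcsk1 and Cpe). In that fit 955 of 13247 tested genes passed in all. In the same fit 4 of 18 granule membrane and assembly genes and 12 of 25 exocytosis genes passed. So did 2 of 11 hormone genes and 4 of 14 transcription factor genes. Without floxed control 3 the median was -0.69, 3 had an unadjusted p under 0.05, against 4.27% of all tested genes, and none passed. Without floxed control 1 the median was -0.71 and 5 had an unadjusted p under 0.05, against 7.69%. Leaving out a knockout moved the values as well. Without knockout 2 the median was -0.70 and 6 had an unadjusted p under 0.05 (6.89% of all tested genes), and without knockout 3 it was -0.90 and 5 did (6.27%). With floxed control 2 as the only control, the median was -0.35 and 1 had an unadjusted p under 0.05, against 2.87% of all tested genes. Floxed control 2 and knockout 1 had a centred level of clock genes of -0.51 and -0.52, against 0.09 to 0.38 in the other 4 libraries. For the mean of the 9 genes, floxed control 2 was also the lowest control (centred level 0.03) and knockout 1 the highest knockout (-0.20). Leaving out this pair therefore widens the group difference. Without these 2 libraries, 8 genes could be tested and their median was -1.08. Of the 8, 4 passed over all genes by edgeR, where 920 of 13030 tested genes passed in all.

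**Figure D5:**
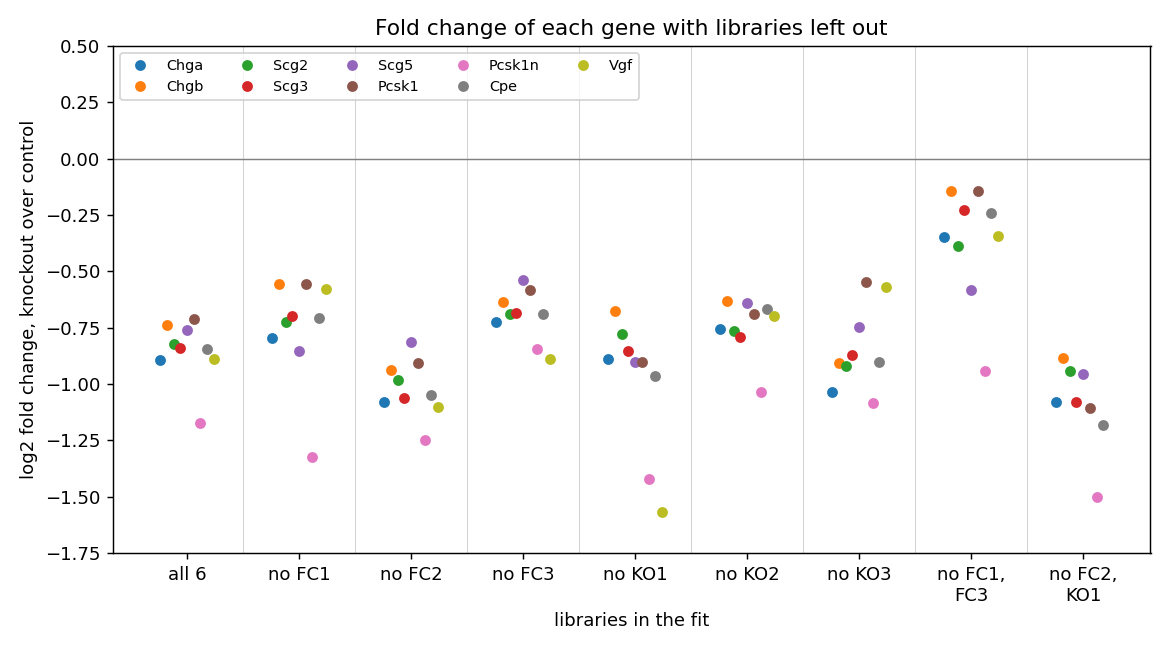
Log2 fold change of each of the 9 genes by edgeR with all 6 libraries and with the named libraries left out (FC, floxed control; KO, knockout); each colour is 1 gene, and Vgf could not be tested in the last setting. Every point is below 0, and without floxed controls 1 and 3 the points of Chgb and Pcsk1 are nearest to it, at -0.14.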

How the data were processed

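Per the labels' protocols, libraries of crypt mRNA were read on the DNBSEQ platform (50 bp, single-end). The build is mm10, per the submitters' processing notes. The sources used here do not give the aligner, counting tool, annotation or strand use. The values the authors deposited are estimated counts per gene, not normalised: 31.1% to 35.2% of them in a library are not whole, and they were rounded before testing.

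Groups were compared with edgeR 4.0.16 under R 4.3.3 (filterByExpr, TMM, glmQLFit with robust estimation, glmQLFTest, Benjamini-Hochberg over all 12943 tested genes), with SE taken as the log2 fold change over the square root of F. The biological coefficient of variation was 20.3%. Alternatives used DESeq2 1.42.0 (no adjusted p for 251 genes, left as such) and limma 3.58.1 (voom). Centred levels and correlations used log2 CPM with a prior count of 2. Reads carried no molecular identifiers.

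The 9 genes, the 23 gene lists and the alternatives were chosen with earlier results of these data known, so no p was adjusted over a list and no list was tested as a set. Named genes were the 9, the 4 of smallest p in each of 5 related lists, and Pam, Ptprn, Ptprn2 and Tph1; others named were chosen after their values were seen. Of the 5 genes most like the 9 in profile, 4 are named, and 1 is not reported here. Transcript lengths are from GENCODE M21 (GRCm38) and gene coordinates from RefSeq for GRCm38.p6. Python 3.11.15, pandas 2.3.3 and matplotlib 3.10.9 were used for the rest.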

Additional observations from a re-analysis of the deposited data

How the results depend on the processing

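The log2 fold changes of the 9 genes were negative in all 150 estimates, each for a gene in an alternative where it was tested. The 17 alternatives reuse the same 6 libraries. The number of genes called over all genes, 2 by edgeR with all libraries, was 0 with DESeq2 size factors or with TMM computed without the 50 most abundant genes, 13 with scaling by total count only, 342 by DESeq2, 67 with no filter beyond 1 count, and 39 with a replicate block. It was 12 without floxed controls 1 and 3, 920 without floxed control 2 and knockout 1, and 0 to 955 when 1 library was left out. Of the 9 genes, 0 were called with all libraries, 1 by DESeq2, 4 without floxed control 2 and knockout 1, and 0 to 5 when 1 library was left out. The number at an unadjusted p under 0.05, 8 with all libraries, was 3 to 8 when 1 library was left out, 1 without floxed controls 1 and 3, 4 with scaling by total count only and 6 with a replicate block. The share of all tested genes lower at that p was 9.63% with all libraries and, in the same order, 4.27% to 14.1%, 2.87%, 4.58% and 8.04%. The cause of these shifts was not tested. With floxed controls 1 and 3 left out, the lone control is assumed to vary like the knockouts. Replicate numbers shared between groups were not treated as pairs in the main fit. The deviations of same-numbered libraries from their group means correlated at -0.177, -0.272 and 0.068, and those of other pairs at -0.145 to 0.384. With 3 libraries a group, these values cannot tell whether the numbers mark pairs. Low counts limit Vgf, Scg5, Scg3 and Pcsk1n most. Vgf could not be tested at 1 CPM in 3 libraries, after thinning to the smallest library, or without floxed control 2 and knockout 1.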

Other observations

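A few genes of the granule route had positive log2 fold changes; they were singled out after their values were seen, and none passed by edgeR. Slc18a2, the second vesicular monoamine transporter gene, measured 3.06, 1.44 and 2.46 CPM in the controls and 2.43, 2.79 and 2.80 CPM in the knockouts, in replicate order (0.22 ± 0.34), whereas Slc18a1 stood at 23.8, 12.0 and 21.5 CPM against 9.65, 10.1 and 8.45 CPM. A difference between the fold changes of the pair was not tested. Stx1a, a syntaxin of the fusion machinery, stood at 5.50, 5.44 and 5.51 CPM against 6.49, 6.97 and 7.33 CPM, with every knockout above every control (0.34 ± 0.21). Unc13a, a vesicle priming factor, had 0.38 ± 0.31, and the convertase genes Pcsk4 and Pcsk6 had 0.37 ± 0.29 and 0.55 ± 0.57. Leaving out 1 library turned the sign of some: Slc18a2 had -0.042 without floxed control 2, and Pcsk6 had -0.029 without knockout 3 and 1.0 without floxed control 2. Stx1a, Unc13a and Pcsk4 stayed positive whichever library was left out. Of the 25 tested exocytosis genes, 3 were positive in all.

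Vamp2, a vesicle SNARE expressed in many cell types, had -0.075 ± 0.17, and the broadly expressed granule assembly genes Vps52, Vps53 and Rab2a had -0.040 ± 0.16, -0.0020 ± 0.15 and 0.029 ± 0.15.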
